A study of Macaca mulatta with 12 samples.

Results

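The corticotropin-releasing hormone system was followed here through 4 genes: CRH, which encodes the stress peptide itself, CRHBP, which encodes its binding protein, and CRHR1 and CRHR2, which encode its receptors. The 4 genes were taken by symbol from the 19708 gene rows of a raw count table, and all 4 were found. The table came from single-nucleus RNA sequencing of frozen amygdala of rhesus macaques (Macaca mulatta). All 12 labelled samples formed 1 group with no treatment, and the labels gave neither the age nor the sex of the animals. The comparisons are therefore between kinds of cell, and the question asked is which cells made, bound and could receive the peptide.

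Corticotropin-releasing hormone is best known as the hypothalamic peptide that drives the pituitary to release corticotropin, the opening step of the hormonal stress response. It also acts within the brain: neurons of the amygdala and cortex make it as a local transmitter, and its receptors, which couple mainly to the stimulatory G protein and cyclic AMP, raise the excitability of the cells that carry them. The binding protein holds the peptide outside the cell and limits how much of it reaches a receptor. CRHR1 binds the hormone with high affinity, while CRHR2 prefers the related urocortins.

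The table held 26400 nuclei and 151526883 unique molecular identifiers (UMIs, each standing for a captured transcript molecule), with a median of 5053.5 UMIs per nucleus. Barcodes carried 3 suffixes, called barcode sets here, of 9201, 8900 and 8299 nuclei, and 68 barcode sequences occurred in 2 sets. The 12 sample titles begin their numbering with 1, 2 or 3, as many values as there are suffixes, but nothing ties a suffix to a title, so all nuclei count as 1 sample. No difference below has replicate error or a test, and the 95% intervals given reflect counting error alone. After removal of presumed doublets 24538 nuclei remained. They included 11048 excitatory nuclei (median 7942 UMIs), 4118 inhibitory nuclei (median 5636) and 8226 non-neuronal nuclei of 8 classes (median 1755). Names stand for clusters that resemble a cell type by its markers. The neurons were divided into 12 inhibitory sub-clusters, I1 to I12, and 12 excitatory sub-clusters, E1 to E12, without any of the 4 genes entering the clustering.

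The labelled tissue was checked against markers of striatal-type and intercalated inhibitory neurons, which the central and intercalated parts of the amygdala contain. FOXP2 stood between 0 and 6.92 CPM (counts scaled to the summed total of the group) in the 12 inhibitory sub-clusters. The summed level of the 4 markers of that list in the table was highest in I10, at 251 CPM. It lay between 26.4 and 85.0 CPM in the other inhibitory sub-clusters. I10 was led by MEIS2, a gene of the same list, and whether it holds striatal-type or intercalated neurons was not tested. The inhibitory nuclei are divided here by interneuron genes, chiefly LHX6 against ADARB2. Among excitatory nuclei, 5114 belonged to the cluster highest in PROX1, a gene of granule-type neurons, and whether that cluster came from the amygdala was not tested.

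CRH lay mainly in inhibitory nuclei, and within them in a small part. The 24538 nuclei held 1071 CRH UMIs, of which inhibitory nuclei, 16.8% of all nuclei, held 593 (55.4%). The level was 23.9 CPM in inhibitory nuclei (22.0 to 25.9) and 2.80 CPM in excitatory nuclei (2.47 to 3.16). The 3 barcode sets gave 24.5, 21.7 and 25.7 CPM in inhibitory nuclei, and 2.90, 2.93 and 2.56 CPM in excitatory nuclei. The sets did not overlap between the classes.

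The highest level was in I5, a sub-cluster of 559 nuclei led by SCGN, which encodes the calcium-binding protein secretagogin, and VWDE. CRH reached 132 CPM there (118 to 148), with 142, 123 and 131 CPM in the 3 barcode sets. I5 was 2.28% of the nuclei and held 312 of the CRH UMIs (29.1%). A CRH UMI was found in 36.3% of its nuclei, and up to 7 in a single nucleus. I5 was high in ADARB2 and PROX1 and carried VIP (40.8 CPM) and CALB2 (41.6 CPM), genes of the interneurons that mostly contact other interneurons. CCK (172 CPM) and CNR1 (576 CPM) stood higher in I5 than these genes, and which kind of interneuron I5 holds was not tested. VIP was not particular to I5: it stood at 47.7 CPM in I4, where CRH was at 9.04 CPM.

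The next level was in I6, led by NPSR1, which encodes the neuropeptide S receptor, and RXRG. I6 had only 87 nuclei and reached 107 CPM (78.5 to 142), with 97.1, 70.8 and 153 CPM in the 3 sets. Its interval overlapped that of I5, so the order of these 2 sub-clusters is not resolved. VIP was at 0 in I6, while RELN, which encodes the secreted protein reelin, stood at 3065 CPM. In both sub-clusters LHX6 was near 0, at 1.70 CPM in I5 and 0 in I6. With presumed doublets kept, no separate sub-cluster like I6 appeared: the highest, of 659 nuclei, stood at 127 CPM and the next at 30.9 CPM.

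A clear gap followed. I9 stood at 30.3 CPM (22.8 to 39.5), I3 at 21.5 (16.7 to 27.2) and I12 at 17.8 (12.5 to 24.6), and each of these intervals overlapped the next. The remaining 7 inhibitory sub-clusters ranged from 2.11 to 14.2 CPM. The 12 excitatory sub-clusters ranged from 1.09 to 5.43 CPM, and 10 of them, the highest included, had intervals that reached that of the highest. Strong nuclei made the pattern sharper. Of 134 nuclei with at least 2 CRH UMIs, 122 were inhibitory and 77 lay in I5, and of 34 with at least 3, 32 were inhibitory and 22 lay in I5.

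CRH in the other cells is read here as background, a reading that was not tested. Non-neuronal nuclei stood at 11.8 CPM (10.1 to 13.7), and their 8 classes lay between 6.66 and 19.98 CPM. A CRH UMI was present in 2.10% of non-neuronal nuclei (median 1755 UMIs), in 2.34% of excitatory nuclei (median 7942) and in 10.3% of inhibitory nuclei (median 5636). With each nucleus thinned to 1000 UMIs, which left out 1239 nuclei, the shares were 1.26, 0.308 and 2.77%, and I5 stood at 11.8%. At equal depth the excitatory share was below the non-neuronal share. Thinning does not equalise the part of free RNA in a nucleus, which was not measured. SST, the somatostatin gene, was also present in non-neuronal nuclei, at 53.4 CPM. The ratio of CRH to SST UMIs was 0.221 in non-neuronal nuclei (0.187 to 0.261) and 0.251 in excitatory nuclei (0.219 to 0.288), and these intervals overlap. The non-neuronal classes ran from 0.167 in microglia (3 CRH UMIs) to 0.600 in endothelial nuclei (6 CRH UMIs). Astrocytes stood at 0.209 (0.171 to 0.253) and oligodendrocyte precursors at 0.412 (0.204 to 0.788). In inhibitory nuclei as a whole the ratio was 0.409 (0.371 to 0.450). It was 5.29 in I5 (3.99 to 7.11) and 0.0368 in the LHX6 sub-clusters (0.0260 to 0.0507).

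**Figure D1:**
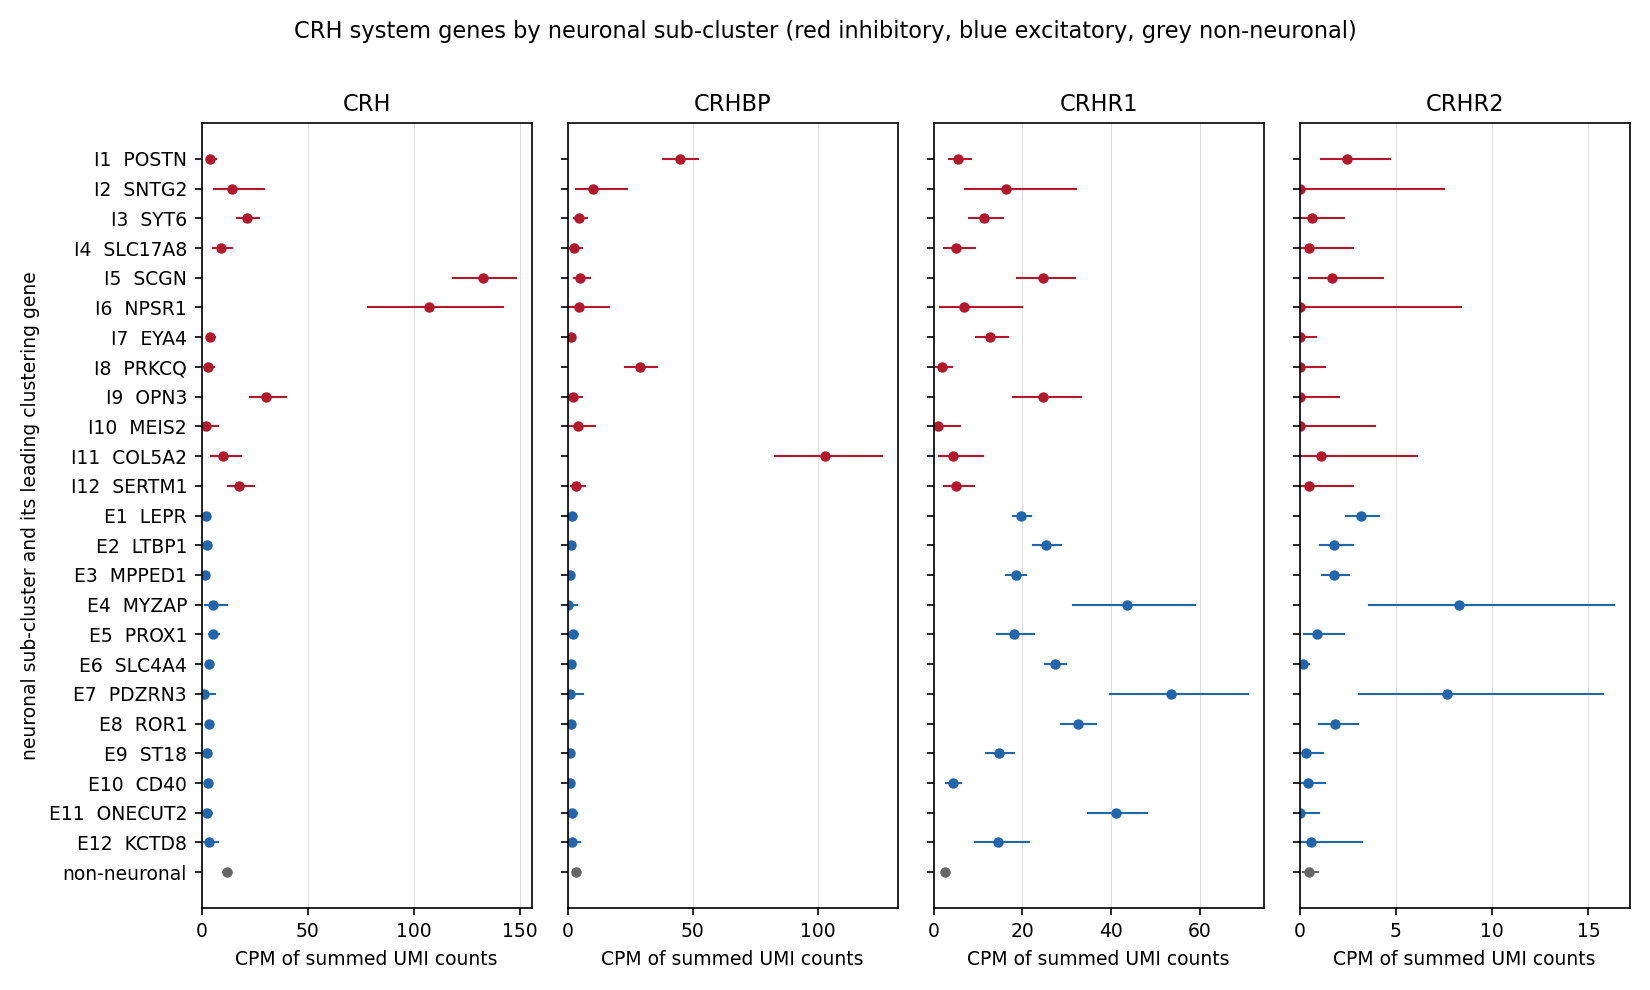
Level of each of the 4 genes in 12 inhibitory (red) and 12 excitatory (blue) sub-clusters and in all non-neuronal nuclei (grey), in CPM of summed counts on a linear axis that differs between panels; points are values and lines are exact 95% counting intervals. CRH stood out in I5 and I6, and CRHBP in I11, I1 and I8. CRHR1 was broad among excitatory sub-clusters, and inhibitory I9 and I5, at 24.7 and 24.6 CPM, lay within their range. CRHR2 reached its highest values in E4 and E7 on 8 and 7 UMIs.

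CRHBP was also a gene of inhibitory nuclei, but of other ones. The nuclei held 590 CRHBP UMIs, and inhibitory nuclei held 397 of them (67.3%). The level was 15.99 CPM in inhibitory (14.5 to 17.6), 1.31 CPM in excitatory (1.09 to 1.56) and 3.45 CPM in non-neuronal nuclei (2.58 to 4.52). Sets 1, 2 and 3 gave 17.1, 14.6 and 16.2 CPM in inhibitory nuclei. Excitatory nuclei lay below the non-neuronal level, and their CRHBP is read as background, which was not tested.

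I11 had the highest CRHBP level, at 103 CPM (83.1 to 126), with 143, 81.4 and 83.1 CPM in the 3 sets. I11 had 151 nuclei, was led by COL5A2, and had the highest SST level of all inhibitory sub-clusters (296 CPM). I1, with 487 nuclei and led by POSTN, followed at 44.8 CPM (38.2 to 52.3). I8, with 360 nuclei, led by PRKCQ and with SST at 192 CPM, stood at 28.8 CPM (22.8 to 35.8). These 3 intervals were all separate, and the level in I2, 10.2 CPM (3.30 to 23.7), overlapped that of I8 slightly. The other 8 inhibitory sub-clusters lay between 1.40 and 5.09 CPM, about the non-neuronal level.

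A CRHBP UMI was found in 35.1% of I11 nuclei, 22.6% of I1 nuclei and 16.1% of I8 nuclei, against 0.632% of non-neuronal nuclei. Thinned to 1000 UMIs, these shares were 6.62, 3.49, 1.94 and 0.413%. Of 30 nuclei with at least 3 CRHBP UMIs, 28 lay in sub-clusters where LHX6 exceeded ADARB2. CRHBP did not follow the level of LHX6 alone. I7, with LHX6 at 207 CPM and ADARB2 at 1630 CPM, had the lowest inhibitory CRHBP level, 1.40 CPM. I2 was the highest in LHX6 (244 CPM) and had CRHBP at 10.2 CPM. LHX6 marks interneurons that include the somatostatin and parvalbumin kinds. PVALB itself stood at or below 6.05 CPM in every inhibitory sub-cluster.

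**Figure D2:**
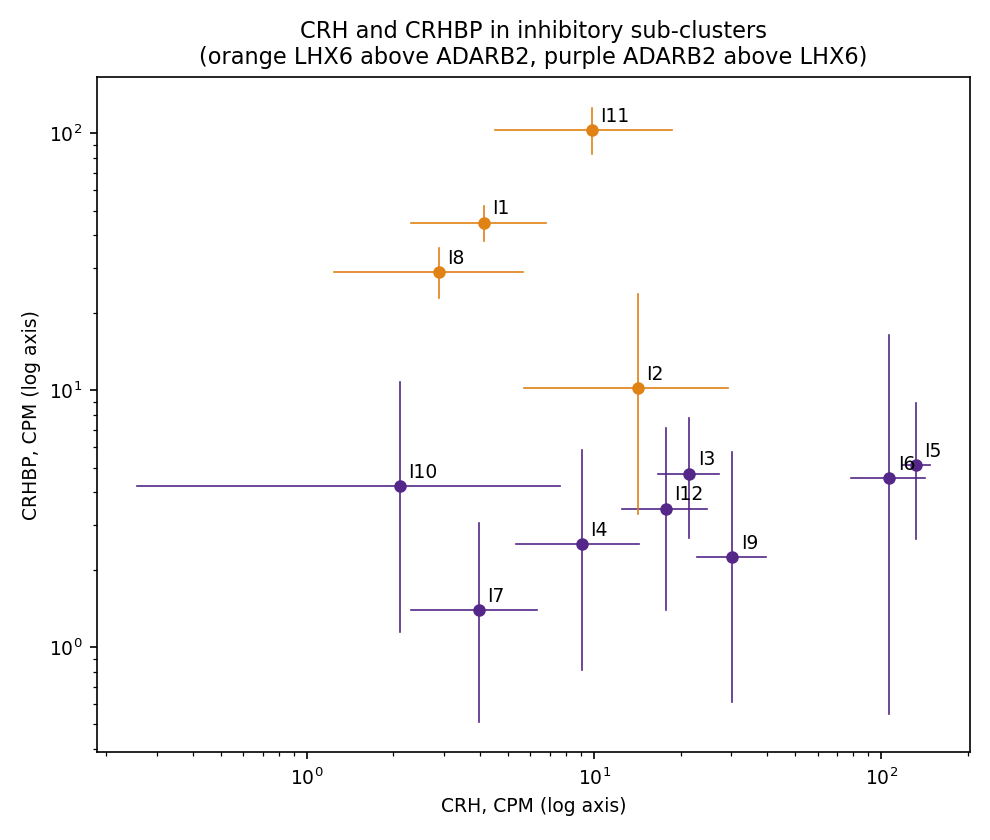
CRH level (x axis, CPM, log scale) against CRHBP level (y axis, CPM, log scale) in the 12 inhibitory sub-clusters, with exact 95% counting intervals; orange marks sub-clusters with LHX6 above ADARB2 and purple the others. The sub-clusters highest in CRH, I5 and I6, had CRHBP at 5.09 and 4.55 CPM, and those highest in CRHBP, I11, I1 and I8, had CRH between 2.88 and 9.84 CPM.

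The hormone and its binding protein thus stood high in different inhibitory sub-clusters. Over the 12 inhibitory sub-clusters the correlation of log2(CPM + 1) between CRH and CRHBP was −0.28, a description of points that share the same libraries. Only I2, with 77 nuclei, had both above 10 CPM, at 14.2 CPM for CRH and 10.2 CPM for CRHBP, on 7 and 5 UMIs.

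CRHR1, the main receptor of the hormone, had the reverse class pattern. The nuclei held 2434 CRHR1 UMIs, and excitatory nuclei, 45.02% of all nuclei, held 2122 of them (87.2%). The level was 22.5 CPM in excitatory (21.6 to 23.5), 10.2 CPM in inhibitory (9.01 to 11.6) and 2.59 CPM in non-neuronal nuclei (1.84 to 3.54). Sets 1, 2 and 3 gave 22.5, 23.7 and 21.3 CPM in excitatory nuclei and 11.2, 7.85 and 11.7 CPM in inhibitory nuclei, which do not overlap. A CRHR1 UMI was found in 16.3% of excitatory, 5.59% of inhibitory and 0.474% of non-neuronal nuclei, and in 2.31, 1.26 and 0.226% after thinning. Both neuronal classes were above the non-neuronal share at either depth.

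CRHR1 was broad among excitatory sub-clusters. It was highest in E7 at 53.6 CPM (39.6 to 70.8), E4 at 43.5 CPM (31.4 to 58.8) and E11 at 41.0 CPM (34.7 to 48.1), and these 3 intervals overlapped. E7, with 116 nuclei, was led by PDZRN3, E4, with 106 nuclei, by MYZAP and FOXP2, and E11, with 332 nuclei, by ONECUT2 and ABCA13. FOXP2, a transcription factor gene of deep-layer cortical projection neurons among other cells, stood at 579 CPM in E4 and 199 CPM in E7, but at 2.73 CPM in E11. A CRHR1 UMI was found in 34.5% of E7 nuclei, 31.1% of E4 nuclei and 33.7% of E11 nuclei.

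E8 (32.5 CPM), E6 (27.4) and E2 (25.3) followed, each overlapping its neighbour in the order, and E8 also overlapped E11. E1 (19.8), E3 (18.5), E5 (18.1), E9 (14.7) and E12 (14.6) formed a further run of overlapping intervals. The interval of E1 did not reach that of E2 (22.3 to 28.6), whereas that of E5 (14.3 to 22.5) did. E10, led by CD40 and FSTL1, was the exception. It stood at 4.29 CPM (2.85 to 6.20), below every other excitatory sub-cluster, with an interval that overlapped the non-neuronal level. E10 had the deepest excitatory nuclei, with a median of 12458 UMIs, and only 4.75% of its 526 nuclei had a CRHR1 UMI.

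Among inhibitory sub-clusters CRHR1 was highest in I9 at 24.7 CPM (17.9 to 33.1) and in I5 at 24.6 CPM (18.7 to 31.8). These values lay within the excitatory range. I2 (16.3 CPM), I7 (12.8) and I3 (11.4) followed, and the other 7 lay between 1.05 and 6.82 CPM. I5, highest in CRH, was thus also among the inhibitory sub-clusters highest in CRHR1, with 26.2, 22.3 and 25.1 CPM in the 3 sets. I6, the next in CRH, stood at 6.82 CPM for CRHR1 on 3 UMIs (1.41 to 19.9), and 0 of its 34 nuclei with CRH had a CRHR1 UMI. CRHBP-rich I11, I1 and I8 had CRHR1 at 4.37, 5.50 and 1.80 CPM.

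CRHR2 was rare, with 172 UMIs in all. Excitatory nuclei held 147 (85.5%), inhibitory nuclei 18 and non-neuronal nuclei 7. The levels were 1.56 CPM in excitatory (1.32 to 1.83), 0.725 in inhibitory (0.430 to 1.15) and 0.465 in non-neuronal nuclei (0.187 to 0.957). Inhibitory and non-neuronal intervals overlapped for the classes as a whole. I1 held 9 of the 18 inhibitory UMIs and stood at 2.48 CPM (1.13 to 4.70), above the non-neuronal interval, and the other inhibitory sub-clusters held 0 to 4 UMIs. A CRHR2 UMI was found in 1.15% of excitatory nuclei and 0.0851% of non-neuronal nuclei. After thinning these shares were 0.0996% (0.0497 to 0.178) and 0.0666% (0.0216 to 0.155), a difference that was not detectable at that depth.

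The CRHR2 UMIs were unevenly spread over the excitatory sub-clusters. E1, led by LEPR, the leptin receptor gene, and DNAH8, held 58 of them (33.7%) in 6.99% of the nuclei, at 3.19 CPM (2.42 to 4.13). The sets gave 2.85, 3.99 and 2.73 CPM. E4 stood at 8.29 CPM (3.58 to 16.3) on 8 UMIs and E7 at 7.65 CPM (3.08 to 15.8) on 7 UMIs, and both overlapped E1. E6, the largest excitatory sub-cluster with 2706 nuclei, held 3 CRHR2 UMIs, at 0.168 CPM (0.0347 to 0.492). E11, where CRHR1 was among the highest, held 0 CRHR2 UMIs in 332 nuclei, and 3 counts would have been 0.821 CPM. In a reference gene table of RefSeq, CRHR2 overlaps MINDY4 and INMT, and the strand setting of the counting is not given in the sources used here, so some of its UMIs may belong to those genes.

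Of the other ligands of the receptors, UCN, the urocortin gene, and UCN3 were measured. UCN stood at 11.4 CPM in inhibitory (10.1 to 12.8), 5.44 CPM in excitatory (4.97 to 5.93) and 4.45 CPM in non-neuronal nuclei, and was lower in excitatory than inhibitory nuclei by log2 −1.06. It was even among inhibitory sub-clusters, from 7.91 to 16.3 CPM, without the peaks seen for CRH. UCN overlaps MPV17 and TRIM54 in the same reference table, so its counts are uncertain too. UCN3 had 3 UMIs in all 26400 nuclei, and UCN2 was not analysed here.

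**Figure D3:**
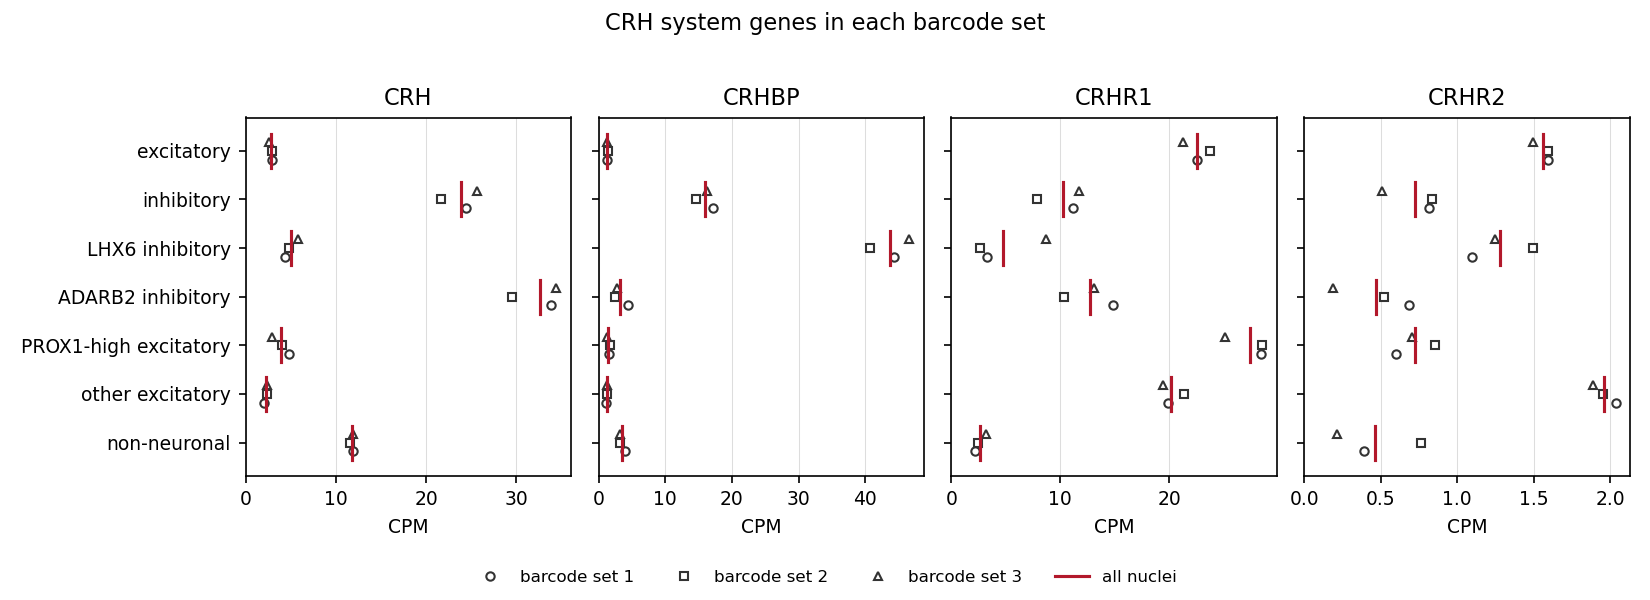
Level of each of the 4 genes (CPM, linear axis that differs between panels) in 7 groups of nuclei; open symbols are the 3 barcode sets and the red bar is the value over all nuclei. For CRH, CRHBP and CRHR1 the 3 sets of excitatory nuclei lay apart from those of inhibitory nuclei, and for CRHR1 in LHX6 inhibitory nuclei set 3, at 8.72 CPM, lay above sets 1 and 2, at 3.29 and 2.62 CPM.

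Excitatory nuclei were compared with inhibitory nuclei for the whole pathway. A gene was counted as higher or lower at a difference of at least 2-fold in summed counts. All 4 genes passed that mark, 2 in each direction, where 8.58% of 7514 measured genes were higher, 8.50% were lower and 17.1% were either. CRH was lower by log2 −3.09 (−3.31 to −2.88) and CRHBP by −3.61 (−3.92 to −3.32). CRHR1 was higher by log2 1.14 (0.95 to 1.33) and CRHR2 by 1.11 (0.40 to 1.90). The CRHR1 difference was near the 2-fold mark: the 3 sets gave 1.01, 1.60 and 0.86, and it was 0.94 without barcode set 2, 0.98 without the PROX1 cluster and 0.87 after thinning. The CRHR2 difference was 0.035 after thinning, which left 11 excitatory and 4 inhibitory nuclei with a UMI.

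Genes that carry the receptors' signal were mostly within 2-fold in the classes. Of 27 measured genes of receptor transduction, 0 were higher and 5 were lower in excitatory nuclei, with a median log2 difference of −0.16, beside −0.10 over all measured genes. The lower ones included RAPGEF3 (−2.32), an exchange factor opened by cyclic AMP, ADCY7 (−1.82) and ADCY8 (−1.77), which make cyclic AMP, and GNAS (−1.76), which encodes the stimulatory G protein. GNAS stood at 102 CPM in excitatory and 346 CPM in inhibitory nuclei, opposite in direction to CRHR1.

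Genes that process and release peptides went both ways, with 3 of 14 higher and 3 lower (median −0.34). CPE (1.91), the carboxypeptidase that trims peptide precursors, the convertase gene PCSK2 (1.34) and the release gene CADPS2 (1.30) were higher in excitatory nuclei. MME (−3.71), which encodes the peptide-degrading neprilysin, and the granule proteins VGF (−1.79) and SCG2 (−1.76) were lower. Other peptide precursors were mostly inhibitory, as CRH was. Of 15 measured, 8 were lower in excitatory nuclei, led by PNOC (−3.92), TAC1 (−3.67), VIP (−3.49) and TAC3 (−3.27), and GRP (2.96) and PDYN (1.49) were higher (median −1.90).

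Of 9 interneuron genes, 7 were lower in excitatory nuclei, led by RELN (−6.20), HTR3A (−6.05), NDNF (−5.63) and NOS1 (−3.67), and NPY1R (1.20), a receptor gene for neuropeptide Y, was higher. Of 10 measured genes of the stress hormone list, which includes BDNF and NR4A genes, 6 were higher in excitatory nuclei and 0 were lower (median 1.93). The 4 within 2-fold were NR3C1 (−0.40), HSD11B1 (−0.21), TSC22D3 (−0.92) and NR4A1 (0.19). AVPR1A, a vasopressin receptor gene, had 111 UMIs against 1 (log2 4.87, interval 2.36 to 10.2), and BDNF (3.41), NR4A2 (2.80) and FKBP5 (2.48), a chaperone gene of steroid receptors, followed.

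The PROX1 cluster was compared with the other 5934 excitatory nuclei. CRHR2 was the one of the 4 genes past 2-fold, where 5.51% of 7173 measured genes were higher in the cluster, 7.78% lower and 13.3% either. CRHR2 stood at 0.723 CPM in the cluster (22 UMIs) and 1.96 CPM in the others (125 UMIs), a log2 difference of −1.44 (−2.16 to −0.78) with set values of −1.76, −1.19 and −1.42. After thinning it was −0.59. The sub-clusters were uneven on both sides. Among those high in PROX1, CRHR2 stood at 1.84 CPM in E8, 0.904 CPM in E5 and 0.168 CPM in E6. Among the others it ranged from 0 CPM in E11 to 8.29 CPM in E4, with E2 and E3 at 1.77 CPM. CRHR1 stood at 27.4 CPM in the cluster and 20.2 CPM in the others, a log2 difference of 0.44 (0.31 to 0.57), and at 0.26 without 2 other excitatory clusters, led by ST18 and ERG. For CRH (0.81) and CRHBP (0.28) both groups lay below the non-neuronal level.

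The 2 clusters led by ST18 and ERG had 1 marker gene of another class and 0 of their own among their top 10 genes, which is why they were left out as a check. In the PROX1 cluster 4 of 27 transduction genes were lower, namely ADCY8 (−2.12), GNAI1 (−1.84), RAPGEF3 (−1.19) and PRKCE (−1.05), and ADCY1 (1.06) was higher (median −0.01, beside 0.07 over all measured genes). Of 13 peptide processing genes, PAM (2.03), the amidating enzyme that finishes peptides such as CRH, was higher, and PCSK1 (−2.84), CADPS2 (−2.26) and CPE (−1.84) were lower (median −0.03).

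Of 12 measured peptide precursors, GRP (5.47), SST (1.09) and TAC1 (1.05) were higher in the PROX1 cluster and GAL (−1.28) and NTS (−1.14) lower (median 0.50). SST was below its non-neuronal level on both sides. Of 6 interneuron genes, NPY1R (2.84), CALB1 (2.16) and LAMP5 (1.11) were higher and CNR1 (−1.58) lower (median 0.91). Of 10 stress hormone genes, AVPR1A (3.75) and FKBP5 (1.03) were higher, and NR4A2 (−1.97), HSD11B1 (−1.90), the enzyme gene that regenerates cortisol, and NR4A3 (−1.37) were lower (median −0.08).

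Inhibitory nuclei were divided by LHX6 and ADARB2, which mark interneurons of different embryonic origin. The sub-clusters I1, I2, I8 and I11, with 1075 nuclei, had LHX6 above ADARB2, and the other 8, with 3043 nuclei, had ADARB2 above LHX6. I7, counted among the latter, also carried LHX6, at 207 CPM. All 3 of the 4 genes that could be measured passed 2-fold, where 2.61% of 5981 measured genes were higher in the LHX6 group, 4.90% lower and 7.51% either. CRHBP was higher in the LHX6 group, at 43.7 CPM (342 UMIs) against 3.24 CPM (55 UMIs), a log2 difference of 3.76 (3.34 to 4.19). The sets gave 3.31, 4.06 and 4.07.

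CRH was lower in the LHX6 group, at 4.99 CPM (39 UMIs) against 32.6 CPM (554 UMIs), a log2 difference of −2.71 (−3.21 to −2.24). The sets gave −2.95, −2.60 and −2.57, and the LHX6 level was below the non-neuronal level. CRHR1 was lower too, at 4.73 CPM (37 UMIs) against 12.8 CPM (217 UMIs), a log2 difference of −1.43 (−1.98 to −0.92). Its sets were less alike, at −2.18, −1.98 and −0.58, and it was −2.09 without barcode set 3, since 21 of the 37 UMIs of the LHX6 group came from that set. CRHR2 had 10 UMIs in the LHX6 group and 8 in the ADARB2 group, too few to be measured, and 9 of the 10 lay in I1.

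Receptor transduction genes were mostly within 2-fold between the 2 inhibitory groups: 0 of 27 were higher and 1 was lower, ADCY7 (−1.18, on 11 and 54 UMIs), with a median of −0.02 beside −0.04 over all measured genes. Of 14 processing genes, MME (5.57) was higher in the LHX6 group, and CADPS2 (−2.13) and PCSK2 (−1.11) were lower (median −0.12). MME, whose product breaks down peptides, was higher in the same group as CRHBP, and CADPS2 and PCSK2 in the same group as CRH. Whether they lay in the same sub-clusters was not tested. Of 10 peptide precursors, TAC1 (4.16), NPY (2.96) and SST (2.56) were higher, and TAC3 (−3.27), VIP (−2.80) and CCK (−2.24) were lower (median −0.23). Of 9 interneuron genes 7 were lower, led by NDNF (−5.30), CNR1 (−4.32), LAMP5 (−3.65) and HTR3A (−3.61). Of 8 stress hormone genes, the mineralocorticoid receptor gene NR3C2 (−2.26), NR4A3 (−1.74) and FKBP5 (−1.02) were lower (median −0.47).

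Nuclei with CRH were then searched for the other genes of the system. Of 4118 inhibitory nuclei, 425 had at least 1 CRH UMI (median 5037 UMIs) and 3693 had none (median 5713). CRHR1 was found in 29 of the 425 (6.82%, 4.62 to 9.65) and in 5.44% of the others. If the CRH nuclei were like the other nuclei of their own sub-clusters, 7.93% would have had it. CRHBP was found in 20 of the 425 (4.71%, 2.90 to 7.17), against 6.96% of the others and 3.44% from the sub-clusters. CRHR2 was found in 1. Detection of CRH and of each of the other 3 genes in the same nucleus was thus within counting error of what the sub-clusters gave, at a depth where most nuclei show 0 or 1 UMI of each.

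Other listed genes differed more between CRH nuclei and all other inhibitory nuclei, which also differed in sub-cluster. The largest differences among the listed genes were in CNR1, the cannabinoid receptor gene (76.7% of CRH nuclei against 54.3% of the others), NOS1 (13.2 against 31.7%), NR3C2 (83.1 against 67.2%), ADCY8 (44.0 against 59.4%), CCK (41.4 against 26.4%), RELN (38.4 against 52.9%), ADCY1 (35.3 against 47.1%) and PCSK2 (71.1 against 59.3%). For NOS1, RELN and ADCY8 the sub-clusters gave 14.6, 39.3 and 48.3%, close to the observed shares. For CCK they gave 28.3%, below the observed share. CNR1 was also frequent in nuclei without CRH of the same sub-clusters. Its shares there were 73.0% in I5, 94.3% in I6, 80.1% in I9, 94.2% in I3 and 42.7% in I12. The shares that sub-clusters gave for NR3C2, ADCY1 and PCSK2 are not given here.

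Within I5 alone, 203 nuclei with CRH (median 4385 UMIs) were set beside 356 without (median 3924). VIP was found in 23.2% of the former (17.5 to 29.6) and 10.1% of the latter (7.18 to 13.7). CCK was found in 53.7% (46.6 to 60.7) and 34.6% (29.6 to 39.7), and CALB2 in 18.7 and 11.5%. VIP and CCK intervals were separate and those of CALB2 overlapped. CNR1 (83.3 and 73.0%) and SST (13.3 and 8.43%) were also found more often with CRH, with overlapping intervals. SST in I5 as a whole, at 25.0 CPM, was below its non-neuronal level. The nuclei with CRH were the deeper, and the part of depth in these differences was not tested. CRHR1 was found in 8.37 and 10.1% and CRHBP in 2.46 and 1.69%, with overlapping intervals.

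**Figure D4:**
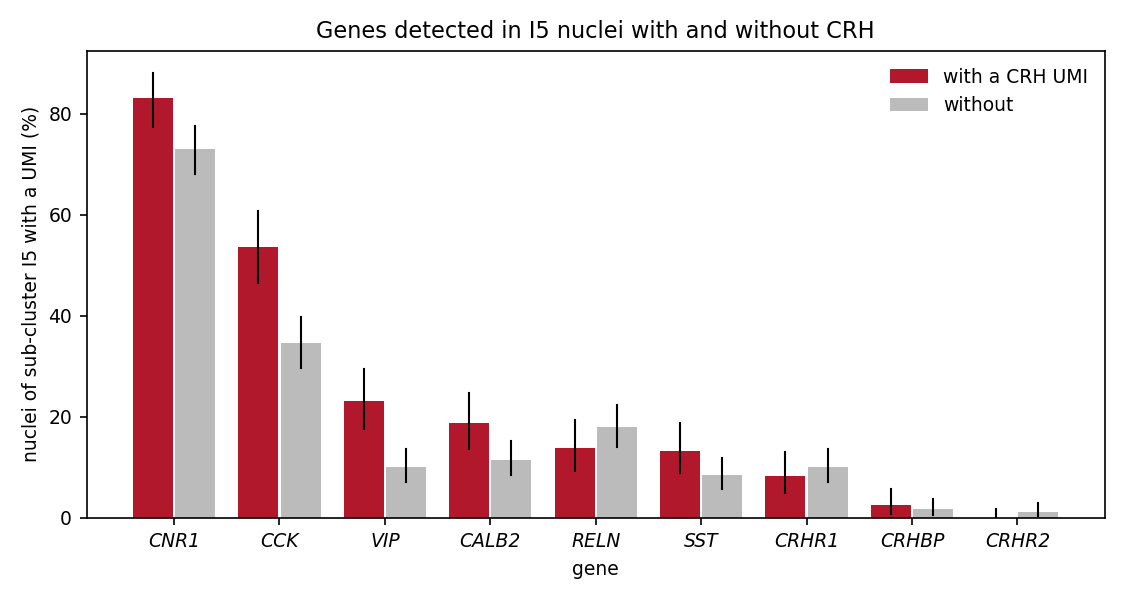
Share of the nuclei of sub-cluster I5 with a UMI of each gene (y axis, percent), for 203 nuclei with a CRH UMI (red) and 356 without (grey); black lines are exact 95% counting intervals. VIP and CCK were found more often in the nuclei with CRH, at 23.2 against 10.1% and 53.7 against 34.6%, while CRHR1 and CRHBP had overlapping intervals.

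CRHBP nuclei were examined in the same way. The 277 inhibitory nuclei with a CRHBP UMI were deeper than the 3841 others (median 7195 against 5544 UMIs). TAC1, the gene of substance P, was found in 32.1% of them and 6.01% of the others, and the sub-clusters gave 18.4%. SST was found in 41.9 and 19.0%, and the sub-clusters gave 42.3%, so SST matched its sub-clusters and TAC1 lay above them. The part of depth in this was not tested. Within I11, NPY was found in 34.0% of 53 nuclei with CRHBP (21.5 to 48.3) and 8.16% of 98 without (3.59 to 15.4), where the depth was 7099 and 5174 UMIs. The shares were close in I8 (34.5 and 33.1%) and in I1 (10.9 and 9.55%). Within I1, RELN was found in 22 of 110 nuclei with CRHBP and in 165 of 377 without, although the former were the deeper (7445 against 7045 UMIs). RELN was found in 53.4% with CRHBP and 76.5% without in I8, and in 67.9 and 67.3% in I11.

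The receptors were set side by side in excitatory nuclei. Of 1804 nuclei with CRHR1, 23 had CRHR2 (1.27%), against 1.13% of the 9244 others and 1.38% from the sub-clusters. CRHR1 and CRHR2 thus showed no more overlap within nuclei than within sub-clusters, at a depth where 23 nuclei carried both. Over the 24 neuronal sub-clusters the correlation of log2(CPM + 1) between the receptors was 0.47.

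Genes with the most similar pattern were found by Pearson correlation of log2(CPM + 1) over 32 groups, the 24 sub-clusters and 8 non-neuronal classes, among 13018 genes. These groups share libraries and free RNA and differ in depth, so the values are descriptions. For CRH they were RGS12 (0.78), PCDH18 (0.78), CBX1 (0.76), SNX11 (0.76) and HSCB (0.76), and none of these peaked in I5. For CRHBP, TAC1 led (0.81), before a gene listed by identifier only (0.79), CASP6 (0.76), HGSNAT (0.76) and NXPH2 (0.76), and 4 of these 5 peaked in I11, as CRHBP did. For CRHR1 they were CACNA1I (0.82), R3HDM1 (0.78), NEURL1 (0.75), SYT5 (0.74) and CDCP1 (0.74), all of which peaked in an excitatory sub-cluster. For CRHR2 they were TRARG1 (0.73), SYCP1 (0.65), FHL2 (0.65), SPON2 (0.65) and DAGLB (0.65).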

How the data were processed

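Nuclei of macaque amygdala were profiled with a 10x Genomics 3′ kit. The authors deposited a table of unnormalized UMI counts, genes by nuclei. The submitters' processing notes list fastp, Cell Ranger 3.0.0 and GRCh38. As 5142 rows carry macaque identifiers (851 got a symbol from a reference table), the build is unsettled, and no coordinates or sequences are given. No label ties a barcode suffix to a sample, so no test over samples was possible.

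Genes were divided before clustering: 9831, including markers (94 of 103 present), were open to it, and 9877, including all list genes (87 of 95 present), were held out. Scrublet's top 0.8% per 1000 nuclei in each barcode set were removed (677, 634 and 551 nuclei). Counts were scaled to 10000 per nucleus and clustered (2000 variable genes, 30 components, 15 neighbours, Leiden resolution 0.5; scanpy 1.11.5, scikit-learn 1.9.0, igraph 0.11.9, Python 3.11.15). Clusters were named from markers by cutoffs chosen with the data in view, for example GAD1 plus GAD2 over 300 CPM for inhibitory and SLC17A7 over 75 CPM for excitatory nuclei; 1146 nuclei stayed unnamed.

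CPM values come from summed counts with exact Poisson intervals, shares have Clopper-Pearson intervals, and log2 ratios have exact conditional intervals. A gene was measured with at least 50 UMIs on a side and at least 10 on each side at the higher of both levels. The comparison script was tested on simulated data. Named in the text were the 4 genes, list genes past 2-fold (up to 4 a direction), 5 genes of similar pattern a member and 8 co-detected genes. The members and lists were chosen with earlier results of these data known. Depth per nucleus limits shares, and UMIs of rare genes are few. The alternatives tried are named in the closing section.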

Additional observations from a re-analysis of the deposited data

How the results depend on the processing

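Of 152 values recomputed under 13 other settings, 136 stayed within the counting interval of the value reported (for counts of genes, within 1.5 times), 16 moved and 0 reversed. Thinned to 1000 UMIs, the log2 difference between excitatory and inhibitory nuclei was −2.83 for CRHBP, 0.87 for CRHR1 and 0.035 for CRHR2. That between the PROX1 cluster and other excitatory nuclei was −0.59 for CRHR2. Those between LHX6 and ADARB2 nuclei were −4.41 for CRH, −2.11 for CRHR1 and 3.08 for CRHR2, and shares of CRH nuclei were 0.877% with CRHBP, 1.75% with CRHR1 and 0% with CRHR2. Thinning leaves fewer UMIs.

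Without barcode set 2, CRHR1 was 0.94 between excitatory and inhibitory nuclei. Without barcode set 3 it was −2.09 between LHX6 and ADARB2 nuclei, and the share with CRHR2 was 0%. That share was also 0% with CRH nuclei taken from 2 UMIs. Without the PROX1 cluster, CRH was −3.40 between the classes, and without the clusters led by ST18 and ERG, CRHR1 was 0.26 between the PROX1 cluster and the rest; the cause was not tested. Leaving out those 2 clusters or sub-clusters high in both LHX6 and ADARB2, and some reclusterings for counts and shares, were chosen after seeing the data. Under other clusterings the highest CRH level in a sub-cluster was 127 to 167 CPM. With presumed doublets kept, 659 nuclei stood at 127 CPM and the next sub-cluster at 30.9 CPM. Depth limits CRHR2 most, with 172 UMIs.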

Other observations

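When all genes outside the lists were open to the clustering, 24 nuclei that belong to E7 separated from it, a group chosen after its values were seen. They held 6 CRHR2 UMIs in 4 nuclei of all 3 barcode sets, at 46.7 CPM (17.2 to 102), and the other 92 nuclei of E7 held 1 UMI, at 1.27 CPM (0.0322 to 7.09). CRHR1 did not separate the same nuclei, at 46.7 CPM (17.2 to 102) against 54.7 CPM (39.6 to 73.7). The 24 nuclei had TSHZ2, a transcription factor gene, at 4027 CPM against 2460 CPM, and FOXP2 at 7.79 CPM against 230.2 CPM.

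With a finer clustering (Leiden resolution 1.0), CRHR1 reached 43.4 and 42.6 CPM in 2 inhibitory sub-clusters of 91 and 267 nuclei, both high in ADARB2. They were picked as the 2 highest in CRHR1 among 19 inhibitory sub-clusters, and no interval is given for them here. E4 stood at 43.5 CPM (31.4 to 58.8). The sub-cluster of 91 nuclei also stood at 130.2 CPM for CRH.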
